A study of Mus musculus with 8 samples.

Results

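Cultured mouse group 2 innate lymphoid cells (ILC2s) that had received vehicle are described here, from the 4 vehicle libraries of a series of 8. The libraries were chosen by the treatment label alone, and all genes of the deposited table were read in them. The source was large intestine of C57BL/6 mice, labelled wild type, from which ILC2s were sorted and then grown for 5 days. The medium held 10 ng/mL of each of 4 cytokines (IL-33, IL-25, IL-7 and IL-2), and vehicle was given in a 16 hour treatment step after that. The remaining libraries, from cells given the leukotriene A4 hydrolase inhibitor SC-57461A, were not used. Whether each replicate is its own animal or culture is not stated in the labels, and the sources used here give neither sex nor age of the mice. All these cells had seen the same 4 cytokines and no library of freshly sorted cells was analysed here, so a level that the cells bring from the gut and a level that the culture sets cannot be told apart. Every level below is in FPKM, fragments scaled to transcript length and library size, and the spread is the SD over the 4 libraries. With 1 group there is no contrast to test, so levels are said to differ only where the 4 values of one gene lie apart from the 4 values of the other.

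ILC2s are lymphocytes that carry no rearranged antigen receptor. They are driven by signals from the tissue: the alarmin IL-33 acts through a receptor made of Il1rl1 and Il1rap, the tuft cell cytokine IL-25 through Il17rb and Il17ra, and IL-2 and IL-7 through receptors that share Il2rg. The transcription factor GATA3 is required for the lineage, and activated ILC2s are known for IL-5, which supports eosinophils, and IL-13, which acts on epithelium and mucus cells in the gut.

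The libraries held 50313937 to 71155654 counts each, spread over 18116 to 19223 genes. They stood as 2 pairs. Replicates 1 and 2 had summed FPKM of 390733 and 390628, against 333840 and 316414 in replicates 3 and 4. Transcripts shorter than 1000 bases took 12.1% and 12.0% of the counts in replicates 1 and 2, and 7.78% and 6.44% in replicates 3 and 4. Of 6483 nuclear protein-coding genes with a mean of at least 5 FPKM, 1821 (28.1%) were higher in both replicates 1 and 2 than in both others and 3568 (55.0%) were lower in both. The longest transcripts of the first group had a median of 1619 bases and those of the second 3690. Rescaled to the same sum in each library, 15.5% were higher and 72.5% lower in both. The genes described most closely are therefore given per library, an SD over the 4 libraries includes this split, and its part in any single level was not tested.

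The 5 genes by which the cells were named were all abundant. Il13 had 4249.6, 4148, 2765 and 2544 FPKM in replicates 1 to 4, and Il5 had 2394, 2349, 2274 and 2071. Klrg1, an inhibitory lectin-like receptor carried by mature ILC2s, had 355, 367, 350.2 and 342, and Il1rl1, the binding chain of the IL-33 receptor, had 302, 291, 356 and 349. Gata3 had 227, 206, 167 and 200.0 FPKM. All 5 stood among the 214 most abundant of 16983 protein-coding genes in the table, Il13 at rank 5 and Il5 at rank 14 with the mitochondrial genes counted. Il13 was the least even of the 5, with replicates 1 and 2 both above replicates 3 and 4, while the Klrg1 values differed by 1.07 times at most. Some genes often used to mark ILC2s or their precursors were near the floor: Tcf7, a transcription factor of early innate lymphoid cells, averaged 0.0781 FPKM, Zbtb16, which marks their precursors, 0.0168, and Ptgdr2, the prostaglandin D2 receptor used to identify ILC2s in other tissues, had 0, 0, 9 and 12 counts.

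**Figure D1:**
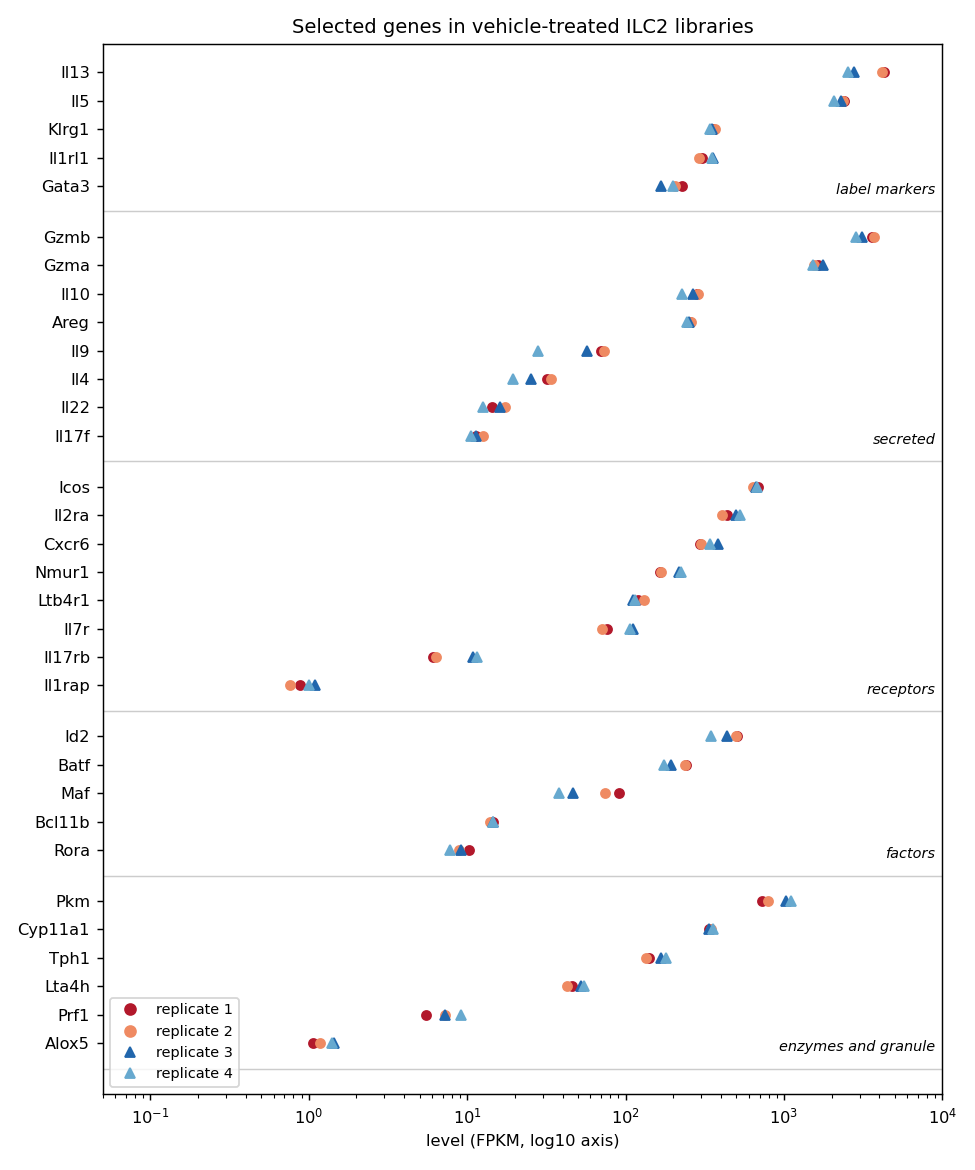
Level of selected genes in the 4 vehicle libraries, in FPKM on a log10 axis, ordered by mean within each role. Each point is 1 library (circles, replicates 1 and 2; triangles, replicates 3 and 4), and values of 0 sit at the left edge. Il13, Il5, Gzmb and Gzma lie above 1000 FPKM in each library, and Il1rap and Prf1 lie under 10.

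Over the whole table, 10969 of 25367 genes (43.2%) averaged at least 1 FPKM, taken as expressed below, and 10343 did so in each library. Among protein-coding genes the share was 56.9% (9668 genes), with a median level of 2.19 FPKM. These 2 values are the background for the gene lists below. Only 35 protein-coding genes reached 1000 FPKM, 419 lay between 100 and 1000, 3932 between 10 and 100, and 5025 under 0.1. The 100 genes with most counts took 22.2% ± 1.62 of all counts. Nuclear protein-coding genes took 93.6% ± 1.52, mitochondrial genes 2.71% ± 0.744 and long non-coding genes 0.817% ± 0.213.

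The most abundant nuclear protein-coding genes mixed general housekeeping genes with products of immune effector cells. By mean level the elongation factor Eef1a1 came first with 4124 ± 245 FPKM, then the actin-sequestering peptide gene Tmsb4x (3487 ± 1202), Il13 (3427 ± 897), the serine protease granzyme B gene Gzmb (3319 ± 411) and beta-actin, Actb (3269 ± 421). The ranges of Eef1a1, Tmsb4x and Il13 overlapped, so their order is not resolved. Il5 was 10th and Gzma 13th among nuclear genes. The 4 genes Il5, Il13, Gzma and Gzmb alone took 1.55% ± 0.232 of all counts, and the 82 ribosomal protein genes together 5.56% ± 1.44. Others of the 30 leading genes were the galectin Lgals1 (2956 ± 882 FPKM), B2m, the light chain of MHC class I (2563 ± 538), the surface antigen Ly6a, known as Sca-1 (1760.1 ± 226), cofilin, Cfl1 (1491 ± 232), vimentin, Vim (1196 ± 123), the iron store light chain Ftl1 (1265 ± 498) and the glycolytic enzyme Pkm (914 ± 185). The ribosomal protein gene Rps26 varied most among the 30, with 4109.8, 4187, 1539 and 1330.0 FPKM, while the highest and lowest values of Eef1a1 differed by 1.13 times.

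Among the deposited pathway terms with 10 to 500 genes, disease terms left out, the terms of highest median level were protein export (19.7 FPKM, 30 of 38 genes expressed), the proteasome (14.5; 57 of 81), DNA replication (13.9; 42 of 52), the citrate cycle (12.7; 35 of 39) and oxidative phosphorylation (12.1; 155 of 232). Among the lowest were olfactory transduction (0.0178 FPKM, 24 of 142 genes expressed), linoleic acid metabolism (0.0204), retinol metabolism (0.0204), neuroactive ligand and receptor interaction (0.0248; 65 of 267) and the complement and coagulation cascades (0.0425; 11 of 90). Genes are shared between these terms. The terms were not limited to protein-coding genes, so any annotated pseudogenes count as members and can lower a median.

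Il13 and Il5 were far above the other cytokine genes of the type 2 response. Of 22 measured genes in the list of type 2 cytokines and effectors, 19 were expressed, 6 of them at 100 FPKM or more, and the list's median was 21.6 FPKM. After Il13 and Il5 came Il10, the anti-inflammatory cytokine, with 284, 288, 268 and 227 FPKM, and Areg, an epidermal growth factor family ligand for epithelium, with 253, 257, 252 and 243. Tgfb1 had 217, 215, 165 and 229.6 FPKM. The Il10 values overlapped with those of both other genes, Areg lay above Tgfb1 in all 4 libraries, and each gene stayed within 1.39 times across the libraries. A second tier held Il24 (104 ± 3.88 FPKM), Lif (64.7 ± 4.92), Il9, which acts on mast cells and on ILC2s themselves (57.2 ± 20.7), Penk, the enkephalin precursor (49.8 ± 3.82), and Arg1, arginase (37.4 ± 3.02). Csf2, which encodes GM-CSF (10.7 ± 1.20), and Calca, the precursor of calcitonin gene-related peptide (15.5 ± 0.884), were lower still. Tnf and Il6 averaged 3.32 and 2.11 FPKM, and Il2 had 0, 10, 0 and 21 counts in replicates 1 to 4.

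Il13, Il4 and Il5 lie beside one another on chromosome 11, with the DNA repair gene Rad50 between Il13 and Il5 (deposited mm10 coordinates 53602982 to 53618669 for Il4, 53631324 to 53634702 for Il13, 53649519 to 53707319 for Rad50 and 53720794 to 53725106 for Il5). Their levels differed widely. Il4 had 31.9, 33.6, 25.4 and 19.4 FPKM, so that Il13 was 109 to 133 times and Il5 69.8 to 107 times its level in single libraries. Il13 exceeded Il5 in all 4 libraries, by 1.22 to 1.77 times, and the 2 ranges did not overlap. No flanking gene came near Il13 or Il5: Rad50 had 25.9, 23.4, 29.8 and 28.5 FPKM, Kif3a, a kinesin motor, 15.7 ± 0.427, Sept8, a septin, 55.1 ± 5.81 and Irf1, an interferon regulatory factor, 16.9 ± 1.89. The antisense gene Gm12214 shares exon bases with Il5 and was listed at 7.83 ± 4.95 FPKM, and since no source used here states whether counting was by strand, the share of either gene in these counts is uncertain.

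The 250 bases before the start of each cytokine gene are shown because these 3 neighbours differ so much in level and because GATA3, whose gene is abundant here, is known to bind this cluster. Sequences are from RefSeq (GRCm38.p6, the assembly behind mm10), written 5′ to 3′ on the strand of the gene, and capitals mark a GATA match, which is AGATAA, or else AGATAG, or else TGATAA, or else TGATAG, on either strand. The windows are chr11:53634703-53634952 (minus strand) for Il13, chr11:53720544-53720793 (plus strand) for Il5 and chr11:53618666-53618915 (minus strand) for Il4, which has 2 starts in RefSeq, the one nearer to the annotated gene end being used.
Il13: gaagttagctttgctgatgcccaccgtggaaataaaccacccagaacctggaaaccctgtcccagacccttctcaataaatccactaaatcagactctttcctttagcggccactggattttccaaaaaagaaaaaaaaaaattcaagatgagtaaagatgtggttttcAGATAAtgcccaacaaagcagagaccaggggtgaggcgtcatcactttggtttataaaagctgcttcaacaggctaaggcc
Il5: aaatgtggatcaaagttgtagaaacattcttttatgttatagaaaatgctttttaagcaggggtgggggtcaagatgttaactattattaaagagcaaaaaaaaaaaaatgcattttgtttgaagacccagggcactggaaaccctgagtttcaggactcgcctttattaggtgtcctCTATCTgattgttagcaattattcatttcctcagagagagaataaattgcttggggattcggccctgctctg
Il4: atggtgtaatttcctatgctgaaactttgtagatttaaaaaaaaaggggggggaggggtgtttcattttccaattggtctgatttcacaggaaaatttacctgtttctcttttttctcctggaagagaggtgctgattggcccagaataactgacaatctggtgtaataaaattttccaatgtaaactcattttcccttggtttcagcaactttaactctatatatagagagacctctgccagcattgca
The Il13 window held 1 match, its letters 81 to 76 bases before the start. The Il5 window held 1, on the opposite strand, 72 to 67 bases before the start. In the Il4 window these letters were not found. Of 32851 RefSeq windows of the same length, 26.5% held at least 1 match, so a match is common, and it does not show that a factor binds.

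Cytokines of other immune responses were fewer and lower. Of 13 measured genes of the type 1 and type 3 list, 5 were expressed and the median was 0.0899 FPKM. Il22, which acts on epithelial barriers and has a near-identical neighbour in Iltifb, had 14.4, 17.4, 16.2 and 12.6 FPKM, and Il17f had 11.4, 12.5, 11.3 and 10.5. Il17a was lower, with 4.42, 4.12, 3.46 and 2.31 FPKM, and the lymphotoxin genes Lta and Ltb averaged 8.01 and 9.47. All 4 libraries carried Il22, Il17f and Il17a transcripts. In bulk libraries fewer cells with a transcript and less of it per cell cannot be told apart. Ifng, the type 1 cytokine, had 9, 13, 0 and 8 counts, and Il18 and Il12a had 0 in each library, which allows up to 3 counts per library (counting error only), or 0.0422 to 0.0596 CPM.

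Of 21 chemokine ligand genes, 2 were expressed. Both attract neutrophils in mice: Cxcl3 had 94.8, 92.1, 56.7 and 39.4 FPKM and Cxcl2 had 9.29, 8.88, 5.93 and 4.34, and for each gene replicates 1 and 2 lay above replicates 3 and 4. The other 19 were under 1 FPKM, and 8 of them, Ccl2, Ccl4, Ccl7, Ccl20, Ccl22, Ccl24, Cxcl9 and Xcl1, had a count of 0 in each library. Ccl1 and Ccl17, a pair associated with type 2 responses, averaged 0.00376 and 0.257 FPKM.

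Granule genes were split. Gzmb had 3612, 3709, 3112 and 2845 FPKM and Gzma 1629, 1535, 1759 and 1516, and in each library Gzmb was the higher. Srgn, the proteoglycan that packs granules, had 1053, 1038, 712 and 665 FPKM. Prf1, the pore former of cytotoxic granules, had 5.50, 7.23, 7.20 and 9.10, a level that Gzmb exceeded 313 to 657 times. Nkg7 averaged 0.346 FPKM, Fasl 0.0277 and Gzmm 0.213, all below 1. Of 13 measured members of that list, 8 (61.5%) were expressed, close to the 56.9% of all protein-coding genes. Mcpt8, a basophil protease gene, averaged 16.2 ± 3.89 FPKM, but the other measured members of the mast cell, basophil and eosinophil list were under 1 FPKM.

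**Figure D2:**
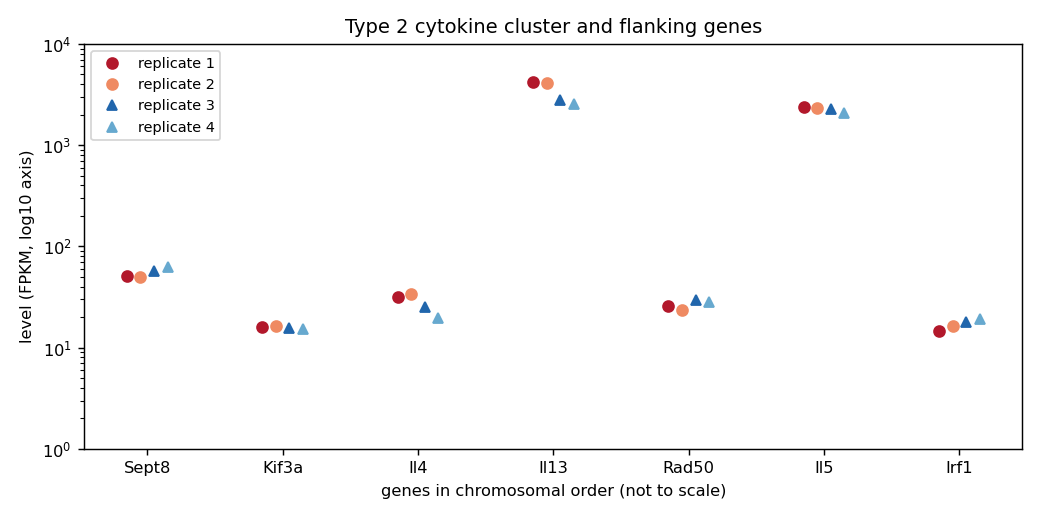
Genes around Il4, Il13 and Il5 in chromosomal order, with the FPKM of each of the 4 vehicle libraries on a log10 axis (circles, replicates 1 and 2; triangles, replicates 3 and 4). Il13 and Il5 lie above 2000 FPKM in each library, and Il4 and the flanking genes Kif3a, Rad50 and Irf1 lie between 10 and 40.

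Receptors for the 4 culture cytokines were present at very unequal levels. Il2ra, the high-affinity chain for IL-2, had 438, 405, 494 and 526 FPKM, Il2rg 223, 226, 241 and 269 and Il2rb 128, 132, 172 and 200.3. Il7r had 76.6, 71.1, 112 and 107 FPKM, and for all 4 of these genes replicates 1 and 2 lay below replicates 3 and 4. The 2 chains of the IL-33 receptor were far apart. Against Il1rl1 at 291 to 356 FPKM, Il1rap, the accessory chain needed for signalling, had 0.886, 0.758, 1.09 and 0.999, and the ratio was 327 to 384 in single libraries. For IL-25, Il17rb had 6.09, 6.36, 10.8 and 11.5 FPKM and Il17ra 17.1, 17.7, 21.3 and 25.2, so Il1rl1 was 30.2 to 49.6 times Il17rb. These ratios compare all transcripts of a gene, and soluble and membrane forms of Il1rl1 or Il1rap were not separated.

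Of 31 measured receptors for other cytokines, 23 were expressed. The highest was Il1r2, a decoy receptor for IL-1, with 118, 112, 115 and 121 FPKM, followed by Il12rb1 (89.8 ± 18.8), Il4ra (58.9 ± 13.0), Kit, the stem cell factor receptor (53.4 ± 17.5), and Crlf2, the receptor for thymic stromal lymphopoietin (39.2 ± 8.91). Partner chains were often uneven here too: the signalling IL-1 receptor Il1r1 averaged 0.0955 FPKM beside Il1r2, and Il12rb2 and Il23r, the partners of Il12rb1, averaged 0.0989 and 0.0107. Il9r (27.5 ± 3.75) was expressed beside its ligand Il9, while Il6ra (0.0859) and Il13ra1 (0.0726) were under 1 FPKM. Tgfbr2 averaged 36.9 ± 7.47 FPKM and Il10ra 14.0 ± 4.29.

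Chemokine and lipid mediator receptors were led by Cxcr6, with 294, 297, 385 and 341 FPKM, above the range of every other member. Ltb4r1, the high-affinity receptor for leukotriene B4, had 120.3, 131, 111 and 114 and Ccr8 110.1, 116, 123 and 125. Cysltr1, which binds cysteinyl leukotrienes, had 94.4, 86.3, 118 and 109, and the ranges of these 3 genes overlapped in turn. Ccr1 and Ccr2 averaged 75.5 and 54.6 FPKM and Ccr4, a receptor of type 2 lymphocytes, 23.2. The gut-homing receptor Ccr9 averaged 0.0196 FPKM, Ccr6 0.182, and S1pr5 and Ptgdr had 0 counts in each library. Of 33 genes in this list, 21 (63.6%) were expressed, close to the 56.9% of all protein-coding genes. Of 294 genes that the deposited annotation gives G protein-coupled receptor activity, 45 were expressed and 91 had a count of 0 in each library. Gpr171, P2ry10 and Lpar6 of that annotation term were also among its leading 10, at 53.9, 49.5 and 30.6 FPKM.

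A single neuropeptide receptor stood out. Nmur1, the neuromedin U receptor of ILC2s, had 165, 166, 216 and 223 FPKM. The serotonin receptor gene Htr1b was next with 32.2, 28.0, 24.9 and 25.3, and Calcrl, which binds calcitonin gene-related peptide with Ramp1, had 4.66, 4.45, 3.36 and 2.45. Ramp1 averaged 0.199 FPKM, Vipr2 0.410 and Vipr1 0.0178. Of 22 measured members 6 were expressed, and Nmur2, Tacr1 and Drd1 had 0 counts in each library. Among nuclear receptors the glucocorticoid receptor Nr3c1 (48.0 ± 5.18 FPKM), the liver X receptor Nr1h2 (24.2 ± 2.33), the retinoic acid receptor Rara (22.0 ± 2.14) and Pparg, a fatty acid sensor (18.7 ± 3.14), led, and 13 of 29 were expressed. The oestrogen receptors Esr1 and Esr2 averaged 0.00319 and 0.00406 FPKM, and Ppara and Pgr had 0 counts in each library.

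Co-stimulatory and inhibitory receptors were led by Icos, with 686, 639, 665 and 670.1 FPKM. Klrg1 came next and then the tumour necrosis factor receptor family members Tnfrsf9, known as 4-1BB, with 284, 284, 234 and 210.3 and Tnfrsf18, known as GITR, with 173, 195, 140.5 and 133. Tigit (93.2 ± 11.5 FPKM) and Ctla4 (55.2 ± 3.78), both inhibitory in T cells, were also above 10. Pdcd1, which encodes PD-1, averaged 8.56 ± 0.929 FPKM and Havcr2 6.26 ± 0.300, while Lag3 averaged 0.678 ± 0.145, under 1 in each library. Of 31 measured genes 20 (64.5%) were expressed, close to the 56.9% of all protein-coding genes. Tnfrsf25, the receptor for TL1A, averaged 13.8 ± 0.724 FPKM and Icosl, the ligand of Icos, 3.03 ± 0.579.

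Surface genes of lymphocytes included Ly6a, Ly6e (437 ± 43.3 FPKM), Cd52 (386 ± 158) and Cd53 (303 ± 35.1). The integrin subunits Itgb7 (175 ± 49.0), Itgal (98.9 ± 30.3) and Itgb2 (94.5 ± 25.5) led the integrins of that list, with Itga4, the gut-homing partner of Itgb7, at 6.75 ± 0.532 and Itgae, its other partner, at 9.73 ± 2.85. Thy1 (35.2 ± 4.30), Ptprc, which encodes CD45 (32.0 ± 7.65), and Cd44 (25.1 ± 1.09) were all expressed. Cd5 averaged 0.0117 FPKM and Cd2 0.137, genes that conventional T cells carry.

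Transcription factors of the ILC2 list were nearly all expressed. Of 31 members, 29 reached 1 FPKM, with a median of 18.7. Id2, the helix-loop-helix factor that all innate lymphoid cells need, had 508, 494, 437 and 346 FPKM, above Gata3 in each library. Batf had 241, 236, 192 and 175 and Junb 193, 220.3, 157 and 167, 2 partners in AP-1 complexes. Ikzf3 (84.3 ± 7.71 FPKM), Ets1 (75.0 ± 6.68), Nfkb1 (68.7 ± 21.9), Maf (62.3 ± 24.4), Nfil3 (56.4 ± 15.0) and Irf4 (48.7 ± 7.58) formed a middle tier. Bcl11b and Rora, on which ILC2 development depends in mice, were lower, Bcl11b with 14.6, 14.0, 14.5 and 14.5 FPKM and Rora with 10.3, 8.84, 9.09 and 7.79. Their values did not overlap with those of Gata3 or Id2.

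Factors of other lineages were mostly near 0. Of 25 such genes, 5 were expressed and the median was 0.0502 FPKM. Tbx21 and Eomes, of ILC1s and natural killer cells, had 8, 0, 0 and 0 and 3, 3, 0 and 0 counts in replicates 1 to 4. Foxp3, of regulatory T cells, had 49, 25, 71 and 62 counts, and Spi1, of myeloid cells, had 11, 24, 0 and 0. The 5 expressed members were Prdm1 (17.4 ± 3.42 FPKM), Zbtb7b (10.1 ± 1.77), Irf8 (2.45 ± 0.297), Cebpb (1.96 ± 1.07) and Lef1 (1.97 ± 0.489).

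Parts of the T cell receptor complex were transcribed and others were not. Tcrg-C1, a constant segment of the gamma chain, had 137, 147, 159.7 and 143 FPKM and Trbc2, of the beta chain, 55.3, 60.6, 38.5 and 33.2. Trac, of the alpha chain, had 3.01, 3.28, 2.36 and 2.24, so Trbc2 was 14.8 to 18.5 times Trac. Of the CD3 chains, Cd3g averaged 9.66 ± 1.87 FPKM, but Cd3e 0.646 ± 0.156 and Cd3d 0.322 ± 0.173, and the co-receptors Cd8a and Cd8b1 had 0 counts in each library. Downstream signalling genes were expressed: Zap70 (44.2 ± 4.90 FPKM), Lcp2 (60.0 ± 11.2) and Lat (28.9 ± 3.43), but Lck averaged 1.56 ± 0.329. Rag1 and Rag2, the recombinase genes, had 0, 0, 0 and 2 and 3, 0, 0 and 0 counts in replicates 1 to 4. Tcrg-C1 has a near-identical copy in Tcrg-C3 and Trbc2 in Trbc1, so the split of reads between these copies is uncertain.

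**Figure D3:**
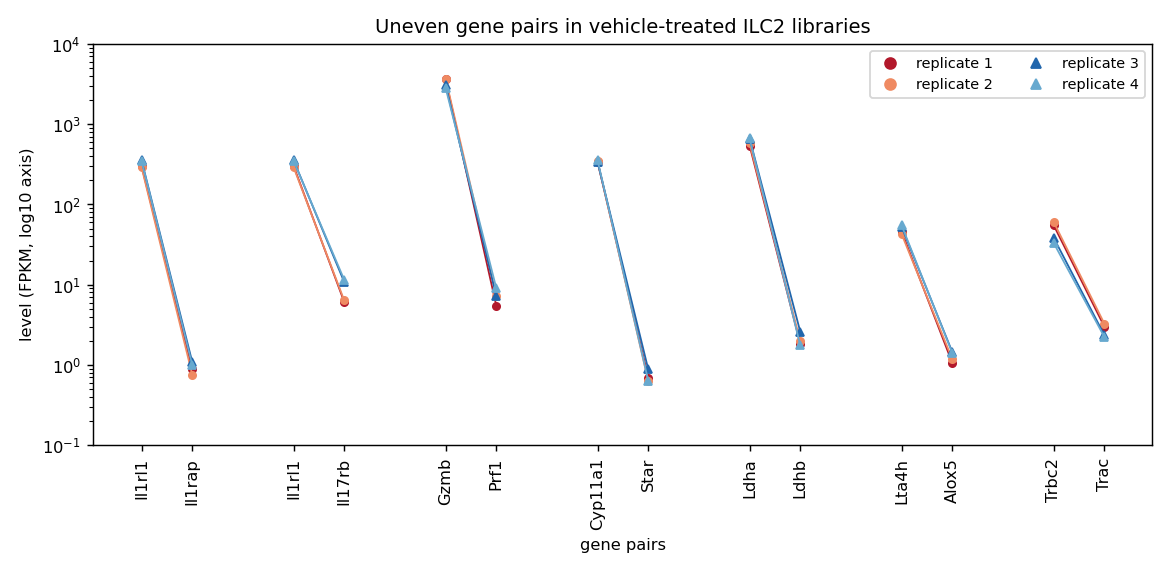
FPKM of receptor chains, granule genes and enzymes set in pairs in the 4 vehicle libraries, on a log10 axis, with lines joining the values of 1 library. In each pair the gene on the left lies above the gene on the right in all 4 libraries.

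Antigen presentation genes of class I had a higher median level than those of class II. All 13 class I genes were expressed with a median of 59.9 FPKM, H2-D1 at 900.0 ± 63.3 and H2-K1 at 630.1 ± 35.7, 2 genes of a polymorphic family whose reads may be shared. Of 10 class II genes 6 (60.0%) were expressed, close to the share of all protein-coding genes, with a median of 1.60 FPKM. The highest were Ctss, a lysosomal protease (24.9 ± 1.38), and H2-Ab1, a class II beta chain (8.28 ± 1.67). H2-Aa, a class II alpha chain, and H2-Eb1, another beta chain, were among the 4 class II genes under 1 FPKM. Cd74, the invariant chain, had 2.03, 5.22, 0.773 and 0.806 FPKM and Ciita, its transactivator, 0.318, 0.501, 0.322 and 0.245. Of 24 pattern recognition genes 9 were expressed, among them Tmem173, known as STING (31.2 ± 2.05 FPKM), and the adaptor Myd88, also used by the IL-33 receptor (28.0 ± 1.64). Tlr5, Tlr8 and Tlr11 had 0 counts in each library, and Tlr4 averaged 1.94 ± 0.237 FPKM.

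Cytokine signalling genes were all present. All 33 members of the cytokine signalling list were expressed. Pim1, a kinase induced by STAT5, had 206, 179.6, 162 and 168 FPKM, Socs1 169, 175, 101 and 102, and Cish, a feedback inhibitor of IL-2 signals, 78.6, 78.9, 78.5 and 82.1. The kinases Jak3 (62.0 ± 18.5 FPKM) and Jak1 (43.7 ± 11.2) exceeded Tyk2 (17.7 ± 5.33). Stat3 (24.8 ± 6.33 FPKM), Stat6 (18.8 ± 4.46) and Stat5b (15.2 ± 3.60) were higher than Stat5a (6.58 ± 1.11) and Stat4 (6.19 ± 1.22). Of 23 measured BCL2 family and death genes 19 were expressed, and the survival genes Mcl1 (49.0 ± 4.06 FPKM) and Bcl2l1 (23.0 ± 1.64) were above Bcl2 (6.24 ± 1.74).

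The cultures carried the transcripts of dividing cells. All 25 S phase genes and all 22 mitosis genes were expressed, with medians of 37.3 and 40.9 FPKM. Pcna, the replication clamp, had 182, 178, 196 and 165 FPKM, Rrm2, a ribonucleotide reductase subunit, 164, 160.5, 192 and 203, and the proliferation marker Mki67 122, 115, 149 and 191. Of 13 cell cycle inhibitors 11 were expressed as well, Cdkn2d at 81.4 ± 16.6 and Cdkn1a at 68.6 ± 18.5 FPKM. Protein synthesis and export were among the highest lists: elongation and initiation factors had a median of 117 and folding genes of the endoplasmic reticulum one of 75.3. Hsp90b1 (455 ± 39.8 FPKM), Calr (381 ± 39.8), Pdia3 (289 ± 9.93) and Hspa5 (220.0 ± 18.0), chaperones and a disulfide isomerase of that compartment, led the second list, and the stress factor Ddit3 averaged 4.59 ± 0.874.

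Glycolysis genes of the list used here were abundant in most steps. Of 24 members 21 were expressed and 9 reached 100 FPKM. The wider deposited term for glycolysis and gluconeogenesis held 257 genes, of which 90 (35.0%) were expressed, with a median of 0.149 FPKM. That term was not limited to protein-coding genes, and over all genes of any kind 43.2% were expressed. Which kinds of gene make up its unexpressed members was not examined. Pkm had 722, 795, 1029 and 1111 FPKM, Aldoa 576, 627, 653 and 712 and Ldha, which makes lactate, 542, 577, 663 and 664. Ldha was 256 to 379 times Ldhb, and Hk1 (39.8 ± 9.14) was above Hk2 (8.76 ± 1.57). Gapdh, often used as a reference gene, was uneven, with 135, 129, 91.1 and 52.0 FPKM, and the ratio of Pkm to Gapdh was 5.36 to 21.3 over the libraries. The search for near-identical copies of its longest transcript gave 0 for Gapdh, and its exons overlap a gene on the other strand. Copies that match less of that transcript would be missed, and the part of shared reads in these values was not tested. All 19 genes of the citrate cycle list used here were expressed, with a median of 34.0 FPKM. In the wider deposited term 35 of 39 were expressed, with a median of 12.7. Of 26 fatty acid genes 21 were expressed, with a median of 7.10 FPKM and a highest mean of 54.3. All 24 cholesterol synthesis genes were expressed, with a median of 13.7. Cd36 had 188, 224, 0 and 0 counts in replicates 1 to 4 and Fabp1 had 0 in each. The 13 proteins encoded in mitochondrial DNA had a median of 1886 FPKM, led by mt-Co1 with 6101, 5991, 4840.0 and 4583, and non-coding genes that copy mitochondrial sequence led the non-coding genes, Gm28661 first at 2730.0 ± 735 FPKM.

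Genes of steroid and serotonin synthesis were very uneven. Cyp11a1, which makes pregnenolone from cholesterol, had 338, 344, 337 and 355 FPKM, while Star, which feeds cholesterol to it, averaged 0.710 ± 0.118, and Cyp17a1, a later enzyme, had 0 counts in each library. Tph1, the rate-limiting enzyme of peripheral serotonin synthesis, had 141, 135, 167 and 179, and Ddc, which completes serotonin, had 0, 0, 8 and 0 counts. Of the leukotriene and prostaglandin list 5 of 17 genes were expressed. Lta4h, the hydrolase that makes leukotriene B4, had 45.8, 42.7, 52.5 and 54.9 FPKM, whereas Alox5, which supplies its substrate, had 1.06, 1.18, 1.45 and 1.41. Hpgds, a prostaglandin D2 synthase, averaged 8.66 ± 0.958 FPKM, and the cyclooxygenases Ptgs1 and Ptgs2 0.0681 and 0.0721. Odc1, the entry enzyme of polyamine synthesis, averaged 86.8 ± 22.7 FPKM, Arg2 0.0815 and Nos2 0.00427.

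A count of 0 in each library was found for 3154 genes, 1436 of them protein-coding (8.46% of protein-coding genes). A further 3116 protein-coding genes were at 0 in at least 1 library but not in all. The pairs of libraries differed here. In replicates 1 and 2, 671 protein-coding genes had counts in both and 0 in both replicates 3 and 4, and 88 genes showed the opposite.

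Markers of other cells were present in replicates 1 and 2 at low levels. Among the nuclear protein-coding genes that averaged 5 FPKM, the 2 with the largest SD of log2(FPKM + 1) were lung epithelial genes. Scgb1a1, the secretoglobin of airway club cells, had 35.7, 59.5, 0 and 0 FPKM and Sftpc, the surfactant protein of alveolar type 2 cells, had 30.2, 40.0, 0 and 0. In counts these were 1234, 1633, 0 and 0 and 1765, 1854, 0 and 0. Of 18 lung epithelial markers, a list added after these 2 values were seen, 1 and 0 were at 0 in replicates 1 and 2 and 12 and 13 in replicates 3 and 4, and their summed level was 92.1, 132, 11.5 and 13.3 FPKM. Sftpa1 had 548, 633, 0 and 0 counts and Nkx2-1, a lung transcription factor, 15, 38, 0 and 0. The labels name colon as the tissue of all libraries, and where these counts come from was not tested. The lung list members that remained in replicates 3 and 4 were mainly Napsa, an aspartic protease, with 8.85, 9.02, 6.84 and 8.77 FPKM, and Hopx, a homeodomain protein, with 3.69, 3.56, 2.90 and 3.04.

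Smooth muscle genes were high in replicate 2 alone. Acta2 had 0.385, 14.8, 0.0986 and 0.170 FPKM, Actg2 0.0761, 21.1, 0 and 0, Tagln 1.40, 14.2, 1.30 and 2.04, Cnn1 0, 7.10, 0 and 0 and Des 0.126, 5.22, 0 and 0.0211. Of nuclear protein-coding genes, 20 reached 1 FPKM in replicate 2 with more than 5 times the level of any other library, against 2, 1 and 0 in replicates 1, 3 and 4. The colon epithelial gene Lypd8 was among the 20, with 0.0976, 3.53, 0 and 0 FPKM. Krt8 and Krt19, keratins of epithelium, had 50, 152, 0 and 0 and 49, 109, 0 and 0 counts.

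Some immune and vascular markers followed the pairs and others did not. Lyz2, the lysozyme of macrophages and neutrophils, whose sequence is close to Lyz1, had 12.8, 19.3, 0 and 0 FPKM, the neutrophil gene S100a9 2.48, 4.27, 0 and 0 and the endothelial cadherin Cdh5 0.369, 0.758, 0 and 0. The B cell marker Ms4a1 was close to 0 in all libraries, with 0, 9, 0 and 0 counts. Over whole lists, 3, 1, 10 and 11 of the 15 macrophage and monocyte markers had 0 counts in replicates 1 to 4. That list summed to 83.4, 86.8, 61.6 and 50.1 FPKM, on average most of it Ccr2 (mean 54.6), given above among the chemokine receptors. Of 18 intestinal epithelial markers 8, 2, 15 and 14 were at 0, and the sum was 7.14, 15.7, 7.92 and 6.99 FPKM, highest in replicate 2. The next 2 lists had more members at 0 in replicates 3 and 4, but not a sum below both other libraries in each of them. The 12 endothelial markers had 0, 0, 8 and 8 at 0 and summed to 14.0, 15.5, 12.9 and 15.1 FPKM, with overlapping pairs. The 14 fibroblast and muscle markers had 2, 0, 8 and 6 at 0 and summed to 1064, 1177, 1279 and 1323 FPKM, most of it Vim, and lower in replicates 1 and 2. Replicate 4 had the most counts (71155654) and replicate 2 the fewest (50313937), and the part of depth in these zeros was not tested. The part of these markers in the levels of other genes was not tested either. Of the 12 T cell markers 4 were expressed, the receptor genes Trbc2, Trac and Cd3g given above and Trbc1 at 9.91 ± 0.813 FPKM, while Cd6, Cd8a and Cd8b1 were at 0 in each library and Cd4 averaged 0.0787. Of 12 natural killer and ILC1 markers, Prf1 alone was expressed, and Ncr1 and Klrb1c had 13, 4, 0 and 0 and 4, 7, 0 and 0 counts. Epcam, an epithelial adhesion gene, was not lower in replicates 3 and 4, with 3.88, 4.77, 5.99 and 4.87 FPKM, and neither was Pecam1, an endothelial and leukocyte adhesion gene, with 10.1, 9.89, 11.1 and 12.3.

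**Figure D4:**
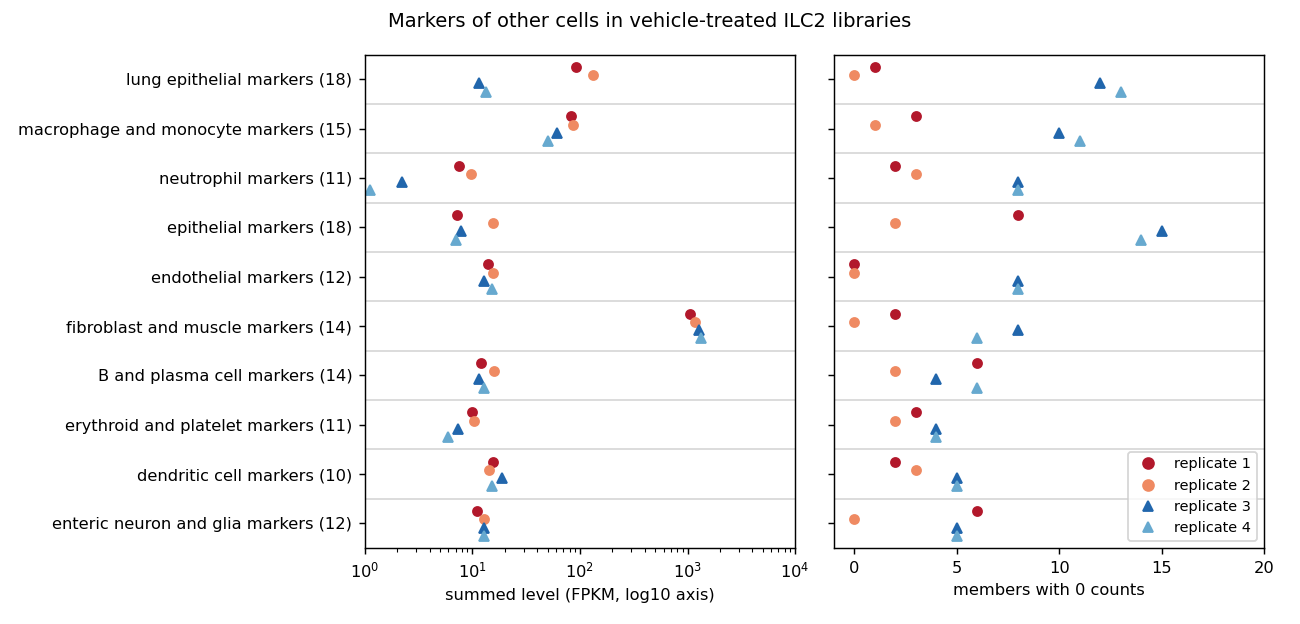
Marker lists of other cell types in each vehicle library, all measured members included: summed FPKM on a log10 axis (left) and the number of members with 0 counts (right), with list sizes in brackets. Circles are replicates 1 and 2 and triangles replicates 3 and 4. The lung epithelial sum is higher in replicates 1 and 2 than in replicates 3 and 4, the endothelial sums overlap, the fibroblast and muscle sum is lower in replicates 1 and 2, and for lung, macrophage, neutrophil, intestinal epithelial and endothelial markers fewer members are at 0 in replicates 1 and 2.

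Other genes of large spread were general cellular genes. Bola2 averaged 34.2 ± 30.4 FPKM. Cox20 had 28.2, 23.6, 5.47 and 2.89 FPKM in replicates 1 to 4, Pfdn2 59.6, 54.8, 12.4 and 8.16 and Usmg5 312, 273, 73.3 and 50.3. The exons of Cox20 overlap Hnrnpu on the other strand. The lectin-like gene Clec2d had 213, 195, 39.6 and 27.4. For all 5 genes replicates 1 and 2 exceeded replicates 3 and 4, by 6.21 to 9.77 times between the highest and the lowest library. The median SD of log2(FPKM + 1) over the 6483 genes was 0.21, and 401 genes (6.19%) had an SD of at least 0.5. Of these, 348 were higher in both replicates 1 and 2 and 52 lower in both. That number depends on the scale, and was 1198 when the FPKM of each library were rescaled to the same sum. By length of the longest transcript, the median deviation of a gene from its mean log2(FPKM + 1) was 0.65 and 0.67 in replicates 1 and 2 and -0.51 and -0.88 in replicates 3 and 4 for the 42 genes under 500 bases. For the 242 genes of 8000 bases or more it was -0.21, -0.28, 0.17 and 0.31. The steadiest genes, with a mean of at least 5 FPKM, were Cenpn, Rab8a, Cebpz, Exo5 and Knop1, Rab8a with 35.1, 35.7, 35.5 and 35.6 FPKM.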

How the data were processed

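The authors deposited 1 table of raw read counts and FPKM values by gene and library, per the file headers. The submitters' processing notes name cutadapt 4.7 and FastQC and the build mm10. Neither aligner, counter, strand nor gene models could be taken from the sources used here. The total behind the deposited FPKM was 1.14, 1.15, 1.12 and 1.11 times the sum of the gene counts in replicates 1 to 4.

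Gene IDs were matched to GENCODE M21, which named 25032 of 25367 genes. No value column was left unmatched (0). Means, SDs and medians were computed with pandas 2.3.3 and TMM factors with edgeR 4.0.16. The SD cut of 0.5 and the search for single deviating libraries were tried on simulated data. The simulated libraries lacked the split into pairs, so they do not show how either behaves with it. With 1 group no difference was tested, and Dixon's critical value was used to mark single libraries far from the others. A count of 0 allows up to 3 counts, and this limit covers counting error only. The gene lists and their members were chosen with earlier results of these data known, and the lung list was added after the values were seen.

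Genes named by rule were the 5 label markers, the 30 leading protein-coding genes, up to 6 highest and 4 lowest members of each list, the 10 largest and 5 smallest spreads, leading non-coding genes and annotated cytokines and receptors, and neighbours of Il4, Il5 and Il13. The deposited annotation gave no genes under the transcription factor term. Other genes were named after their values were seen, and a few genes are not reported here. The longest transcript of each named gene was searched for copies at 95% identity over 50% of its length with BLAST 2.17.0. Of the 285 named genes 17 had one, and 64 share exon bases with another gene, so their counts are less certain.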

Additional observations from a re-analysis of the deposited data

Results flagged for a closer look

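Of 307 sets of 4 library values, those of the named genes with any count and the summed levels of the gene lists, 26 (8.47%) held 1 library far from the other 3, its gap to the nearest, as a share of the whole range, exceeding Dixon's critical value. Chance flags about 1 in 20 sets not chosen for their values, a rate that does not hold here: 11 of the sets are genes with counts in 1 library alone, which always exceed the critical value, and others were named for their large spread. Replicate 2 was the library apart in 12 of them, replicate 1 in 5, replicate 3 in 3 and replicate 4 in 6.

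High in replicate 2 were the smooth muscle genes Acta2 (14.8 FPKM), Actg2 (21.1), Cnn1 (7.10), Des (5.22) and Tagln (14.2), the colon epithelial gene Lypd8 (3.53) and the summed intestinal epithelial markers (15.7). The B cell gene Ms4a1 (0.0249), Il23r (0.0428) and Ccl1 (0.0150) had counts in replicate 2 alone. Low in replicate 2 were Bcl11b (14.0 FPKM), which differed by 1.04 times at most between libraries, and Itga4 (5.96).

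In replicate 4 Lef1 (2.70 FPKM) and Cish (82.1) were high and Ctla4 (49.5) low, while Nos2 (0.0171), Rag1 (0.00381) and Tcrg-C3 (0.0291) had counts there alone. Ccr6 (0.290) was high and Napsa (6.84) low in replicate 3, where alone Ddc had counts (0.0275). Counts in replicate 1 alone were found for Esr2 (0.0163), Rag2 (0.0112) and Tbx21 (0.0439), and Uchl1 (10.4) and the summed enteric neuron and glia markers were low there (11.0). The cause was not tested for any of these.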

How the results depend on the processing

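The number of genes called expressed (10969 at a mean of 1 FPKM) stayed between 9578 and 12902 under every setting tried. The lowest came from a cut of 2 FPKM, and a cut of 0.5 gave 12275. The highest came from rescaling to the same sum, which shifts all levels against the cut. The share of counts in the 100 leading genes (22.2%) became 34.3% as a share of summed FPKM, and 23.9% in replicates 1 and 2 alone. Rescaling FPKM to the same sum or by TMM factors also gave 34.3%. This is no separate check, since 1 factor per library leaves each gene's share of that library unchanged. Genes at 0 counts (3154) became 5211 with up to 3 counts allowed, 9885 at a mean under 0.1 FPKM and 5716 in replicates 3 and 4 alone. Genes with an SD of at least 0.5 (401) became 1198 after rescaling to the same sum, 15 between replicates 1 and 2 alone and 24 between 3 and 4 alone. That rescaling raised the median level of expressed genes by 1.50 on the log2 scale. The settings that use only 2 libraries were chosen after seeing the data.

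Leaving out each replicate in turn gave 10956 to 10980 genes at 1 FPKM, shares of 21.7 to 22.8%, 3638 to 4076 genes at 0, 35 to 47 of 179 markers of other cells at 1 FPKM (main value 43) and 297 to 575 genes of large spread. The 24 lists above the protein-coding median numbered the same in each of these. Counting only members with a count in each library raised that to 33 lists, because members at 0 then drop out. The log2 ratio of a list's median to the protein-coding median, below 0 in the full lists, then became 2.00 for type 1 and type 3 cytokines, 0.86 for chemokine ligands, 0.16 for pattern recognition genes, 2.16 for the T cell receptor complex, 1.66 for macrophage, 0.39 for dendritic cell, 1.89 for mast cell, 0.71 for ILC3 and 0.82 for fibroblast and muscle markers. Every cause not given here was not tested. No paired analysis was possible because the description covers 1 group and no result comes from a test.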

Other observations

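Immediate early genes were present in the cultures. Of 24 measured, 17 averaged at least 1 FPKM, with a median of 10.1. After Junb came Zfp36, which encodes an RNA-binding protein that destabilises cytokine messages, with 66.0, 66.1, 50.7 and 56.4 FPKM, and Klf6 with 65.0, 59.0, 56.8 and 55.9. Myc averaged 37.8 ± 5.10 FPKM and Egr1 28.3 ± 1.76.

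Single genes named as markers of other lineages were at 1 FPKM or more in each library, in lists of which few members averaged 1 FPKM, these genes included (3 of 14 for B and plasma cells, 2 of 10 for dendritic cells and 1 of 12 for enteric neurons and glia). Cd79b, a chain of the B cell receptor, had 8.24, 8.69, 8.96 and 11.0 FPKM, whereas its partner Cd79a averaged 0.240 ± 0.229. Ccr7, which guides dendritic cells and T cells to lymph nodes, had 8.66, 7.17, 12.7 and 11.3 FPKM, and Xcr1, a chemokine receptor of dendritic cells, 5.84, 5.50, 5.41 and 3.35. Uchl1, a neuronal ubiquitin hydrolase, had 10.4, 11.9, 12.0 and 12.0 FPKM. None of these 4 genes was at 0 in any library.

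The Y-linked genes Ddx3y (15.5, 13.6, 18.4 and 15.8 FPKM), Eif2s3y (10.8, 11.7, 16.3 and 13.2) and Kdm5d (1.39, 1.21, 2.01 and 2.03) were expressed in all 4 libraries, and Xist had 12, 0, 0 and 6 counts.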
